A study of Homo sapiens with 12 samples.

Results

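The comparison concerns 24 h of romidepsin alone in MyLa, a line of malignant T cells established from a lymphoma of the skin. It holds 6 of the 12 libraries of the series: 3 from cells with 3.2 nM romidepsin and 3 from cells with the vehicle DMSO, both taken by their labels. The other 6 libraries, 3 with 5.7 uM afatinib dimaleate (an inhibitor of ERBB receptor kinases) and 3 with both drugs, served the estimate of the spread and a second comparison (the combination against afatinib). All 4 groups were grown with 20 ng/mL interleukin-2 and held the same volume of DMSO. MyLa is 1 line, and nothing in its sample descriptions tells if replicate libraries were grown apart. The p-values therefore measure the spread between these samples, which may be technical.

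Romidepsin inhibits class I histone deacetylases, the enzymes that take acetyl groups off histones and other proteins. Acetylated histones are found at active genes, and inhibitors of the deacetylases are known to raise some genes and to lower others. Romidepsin is used against T cell lymphoma. Of the genes that define T cells, CD3E, LCK, CD5, CD7 and CD8B had at most 4 counts in each of the 6 libraries and CD4 had none, whereas CD2, ZAP70 and CD247 were well above the floor. The summed level of the 17 listed T cell genes was 1960 to 2037 CPM (the unit of normalised read counts scaled to library size) in DMSO and 662 to 697 CPM in romidepsin, and 8 of its 9 tested members were lower. IL2RA, a receptor gene on this list whose values are given below, made up most of the sum in both groups.

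The 6 libraries held 8972228 to 12594395 counts, and the level of 3 counts, which an absent gene could reach by counting error, was 0.245 to 0.344 CPM. The 3 DMSO libraries held 34667536 counts together and the 3 romidepsin libraries 33591395. DMSO replicates 1 and 2 held 59 and 94 counts of the keratinocyte keratin KRT5, and the romidepsin libraries held none. The 16 keratinocyte genes summed to 334 to 378 CPM in DMSO and 274 to 280 CPM in romidepsin, with 3 of them (IVL, S100A7 and KRT1) at 0 in all 6 libraries. Without these 2 DMSO libraries 4535 genes were called higher and 4254 lower.

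Of 16208 tested genes, 5039 (31.1%) were higher with romidepsin and 5100 (31.5%) lower, 62.6% in all, in edgeR's quasi-likelihood test at an adjusted p below 0.05. The change was at least 2-fold in 2157 genes that rose (13.3%) and 1763 that fell (10.9%). The combination compared with afatinib shares no library with this comparison. There, 33.4% of all tested genes were called higher and 35.8% lower, and 3964 of the 5039 genes raised by romidepsin (78.7%) were called higher again, with 204 called lower. Of the 5100 lowered genes, 4226 (82.9%) were called lower again and 135 higher.

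By the number of counts gained, the leading genes were ACTG1 (gamma actin), FLNA (the actin cross-linker filamin A), the nuclear long noncoding RNA NEAT1, DHRS2, SOCS3, CALR, H3F3B and MKNK2. ACTG1 stood at 10162, 10569.5 and 9225 CPM in the DMSO libraries and at 20962, 19571 and 18799.6 CPM in the romidepsin libraries (log2 change 0.99 ± 0.06 SE, adjusted p = 7.92e-20 by edgeR). FLNA went from 4448 ± 361 to 12078 ± 1095 CPM (SD, n = 3) and NEAT1 from 1105 ± 286 to 5507 ± 753 CPM. The groups did not overlap for any of the 3 genes, as for 64.7% of all tested genes. SOCS3, which inhibits cytokine receptor signalling, had 830.0, 812 and 755 CPM in DMSO and 3444, 3344 and 3441 CPM in romidepsin (log2 change 2.09 ± 0.05 SE, adjusted p = 3.57e-34 by edgeR). The largest losses of counts were in PNMA5, IGSF3, MKI67, SRRM2, ADAR, IL2RA, LIF and PTMA. The cytokine gene LIF fell from 888, 891 and 914 to 123, 108 and 125 CPM (log2 change -2.92 ± 0.06 SE, adjusted p = 1.05e-38 by edgeR), and IL2RA, the alpha chain of the receptor for the interleukin-2 in the medium, fell from 1225 ± 22.9 to 423 ± 6.68 CPM. The adhesion protein gene IGSF3 fell from 1166 ± 19.6 to 230.3 ± 12.9 CPM (log2 fold change -2.34).

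The histone genes of the large clusters on chromosomes 1 and 6 (names starting with HIST) encode the core histones and the linker histone H1 that cells make when they copy their DNA. Their transcripts usually end in a stem-loop and not in a poly(A) tail, and the RNA selection of these libraries is not given in the sources used here. Of 89 such names, 42 passed the filter on low counts. Of these 42, 29 were higher, each at least 2-fold, and none was lower (the background is 31.1% higher and 31.5% lower). Members at low levels could pass the filter through the groups in which they were high. Of the 17 members that reached 3 CPM on average over all libraries, 15 were higher and none lower. Among all tested genes at that level, 34.4% were higher and 37.4% lower. This average includes the libraries with romidepsin, so raised members could reach it through them, and the count is no check on the filter. The histone family was picked after its values were seen, as were the other families named below as picked. The summed level of the 42 genes was 109, 112 and 111 CPM in the DMSO libraries and 411, 430.3 and 431 CPM in the romidepsin libraries. It was 103 to 104 CPM with afatinib and 328 to 390 CPM with the combination, so that both groups with romidepsin lay above both groups without it. By class, all 3 tested H1 genes, 5 of 9 H2A, 11 of 15 H2B, 6 of 7 H3 and 4 of 8 H4 genes were higher. Many histone genes have near-identical copies whose shared reads the counting leaves out, so single values are uncertain.

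The promoter windows of 4 histone genes are printed to show what raised and unraised members share in sequence. Each runs from 250 bases before to 50 after the start in RefSeq (GRCh38.p14), 5′ to 3′ on the strand of the gene. Capitals mark TATAAA and CCAAT on either strand. HIST1H3E (chr6:26223928-26224227, plus strand) and HIST2H2BE (chr1:149886633-149886932, minus strand) had the largest rises among tested histone genes with a window and at least 1 CPM. HIST2H2AC (chr1:149886668-149886967, plus strand) did not pass the test and holds both motifs. HIST1H4E (chr6:26204360-26204659, plus strand) did not pass it either and holds neither.
HIST1H3E: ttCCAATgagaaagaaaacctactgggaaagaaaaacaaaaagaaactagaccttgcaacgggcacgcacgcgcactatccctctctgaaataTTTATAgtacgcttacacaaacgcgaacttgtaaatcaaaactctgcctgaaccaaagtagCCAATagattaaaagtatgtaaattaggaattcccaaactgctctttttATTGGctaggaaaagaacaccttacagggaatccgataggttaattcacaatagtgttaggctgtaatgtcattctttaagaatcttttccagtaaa
HIST2H2BE: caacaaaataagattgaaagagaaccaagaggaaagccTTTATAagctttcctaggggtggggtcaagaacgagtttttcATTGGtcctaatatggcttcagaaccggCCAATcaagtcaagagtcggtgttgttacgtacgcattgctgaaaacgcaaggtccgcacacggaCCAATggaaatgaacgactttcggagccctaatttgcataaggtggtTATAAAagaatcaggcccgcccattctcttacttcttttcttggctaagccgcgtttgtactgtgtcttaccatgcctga
HIST2H2AC: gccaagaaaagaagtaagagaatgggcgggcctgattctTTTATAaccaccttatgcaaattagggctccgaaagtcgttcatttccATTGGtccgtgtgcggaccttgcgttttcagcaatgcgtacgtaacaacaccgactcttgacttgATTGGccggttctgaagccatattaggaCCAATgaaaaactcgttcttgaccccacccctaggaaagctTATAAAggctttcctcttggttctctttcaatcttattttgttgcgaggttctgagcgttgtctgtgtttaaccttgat
HIST1H4E: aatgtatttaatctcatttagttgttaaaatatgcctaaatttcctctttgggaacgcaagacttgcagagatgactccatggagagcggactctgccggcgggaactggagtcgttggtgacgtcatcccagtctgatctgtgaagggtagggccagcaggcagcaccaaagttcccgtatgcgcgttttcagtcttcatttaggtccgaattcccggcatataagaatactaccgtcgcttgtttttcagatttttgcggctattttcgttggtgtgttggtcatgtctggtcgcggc

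HIST2H2BE and HIST2H2AC are read in opposite directions from starts 323 bases apart in the annotation of the counts, and their windows share 265 identical bases (chr1:149886668-149886932). HIST2H2BE, an H2B gene, had 1.42, 2.12 and 3.07 CPM in the DMSO libraries and 31.3, 32.3 and 36.2 CPM in the romidepsin libraries (log2 change 3.92 ± 0.17 SE, adjusted p = 1.87e-25 by edgeR). HIST2H2AC, the H2A gene on the other side, had 2.25, 2.02 and 3.15 CPM in DMSO and 1.29, 1.15 and 2.12 CPM in romidepsin (log2 change -0.68 ± 0.37 SE, adjusted p = 0.11 by edgeR). The groups lay apart for the first gene and overlapped for the second. HIST1H3E rose from 0.0834, 0 and 0.175 to 1.804, 2.29 and 2.04 CPM, and HIST1H4E stood at 2.17, 5.15 and 3.59 CPM in DMSO and 2.66, 2.18 and 3.75 CPM in romidepsin. Another pair read outwards from 1 region, HIST1H2BJ and HIST1H2AG with starts 292 bases apart, rose on both sides (log2 fold changes 2.68 and 2.72).

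Windows were matched for 32 of the 42 tested histone genes. TATAAA was found in 17 of the 23 raised ones and in 6 of the 9 that did not pass the test, and CCAAT in 20 and 7. Among all 27305 windows the shares were 11.95% for TATAAA and 35.7% for CCAAT. Thus both motifs were common in these genes whether or not they rose. Outside the histone genes, 527 matched genes had TATAAA, of which 210 rose and 159 fell.

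All tested linker histone genes rose. HIST1H1C (chromosome 6, 26055787 to 26056428, GRCh38.p12), the most counted of the tested clustered genes, went from 32.3, 26.6 and 30.05 to 96.7, 105 and 92.99 CPM (log2 change 1.72 ± 0.09 SE, adjusted p = 4.59e-23 by edgeR), and HIST1H1E from 0.667, 1.72 and 1.84 to 14.3, 17.4 and 13.9 CPM. HIST1H2BG went from 0.667, 0.505 and 0.964 to 12.4, 14.4 and 12.1 CPM. By contrast HIST1H4C had 8.17, 7.37 and 6.66 CPM in DMSO and 8.33, 8.02 and 10.3 CPM in romidepsin (edgeR adjusted p = 0.157). The replacement histones, whose genes lie outside the clusters and are read through the whole cell cycle, moved both ways, with 3 of 10 higher and 5 lower. H3F3B, which encodes H3.3, rose from 958 ± 15.2 to 2293 ± 7.49 CPM, whereas H3F3A, which encodes the same protein, fell from 42.4 ± 5.17 to 31.4 ± 3.66 CPM. The linker variant H1FX rose from 220.0 ± 16.4 to 745 ± 10.3 CPM and CENPA, the H3 variant of the centromere, fell from 37.2 ± 1.797 to 19.1 ± 2.3996 CPM.

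**Figure D1:**
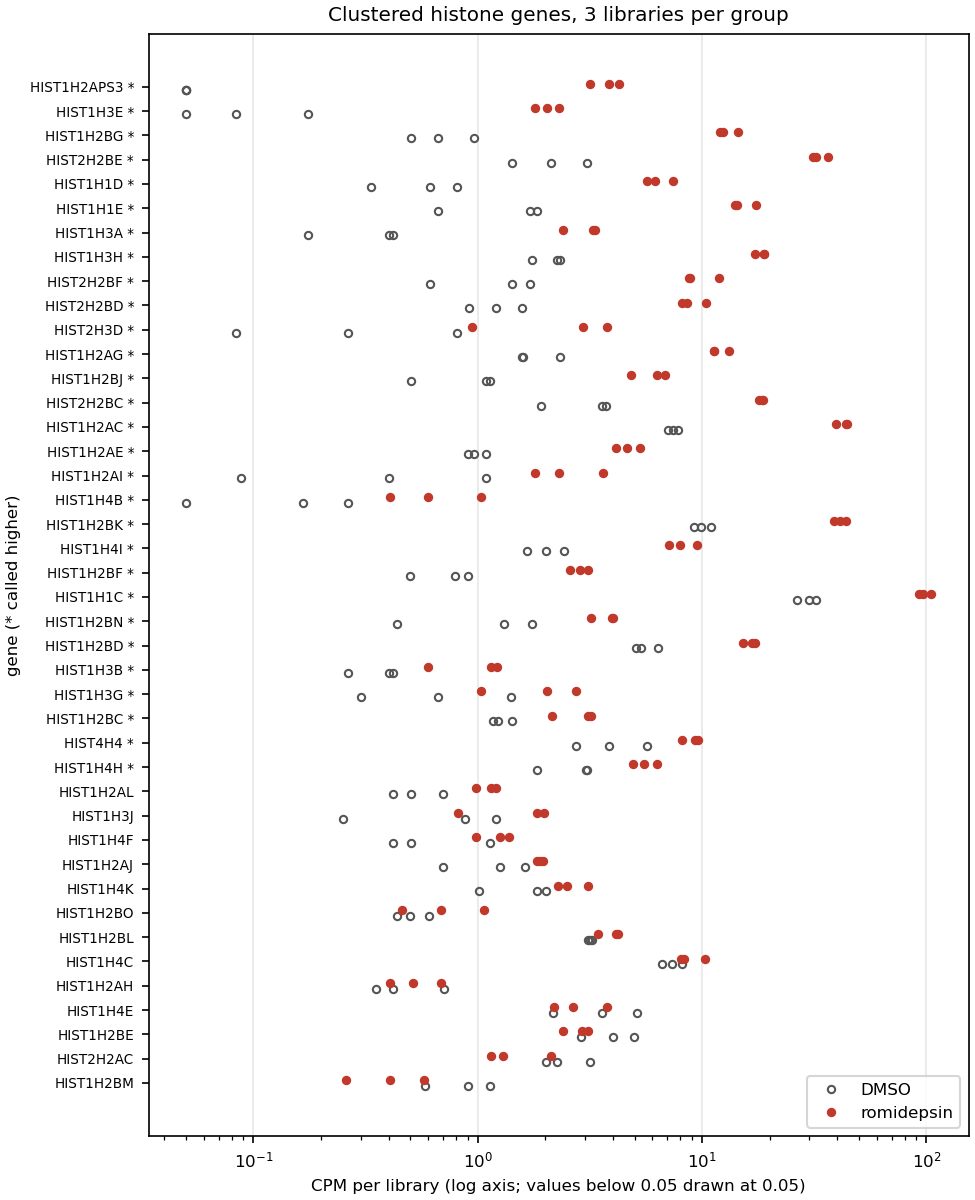
Level in CPM (log axis) of the 42 tested clustered histone genes in each of the 3 DMSO libraries (open circles) and the 3 romidepsin libraries (filled circles), ordered by log2 fold change, with values below 0.05 drawn at 0.05. The 29 genes with a star were called higher, and none was called lower.

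The cilium is the microtubule-based projection of the cell surface. The list of its genes holds motor and structural proteins of the moving axoneme, intraflagellar transport (IFT) proteins, which carry cargo along it, and BBSome proteins. Of 95 names, 62 passed the filter, with 39 higher, 12 lower and a median log2 change of 0.77, against 31.1% higher, 31.5% lower and a median of -0.00 over all tested genes. Members at low levels passed the filter through the groups in which they were high. In the combination against afatinib, 44 of the 62 had the same call, and the median change was 0.78. Members whose 12-library average reached 3 CPM had a median of 0.53, but raised members could reach that average through the libraries with romidepsin.

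RSPH3, a radial spoke protein, had 3.59, 3.13 and 2.54 CPM in DMSO and 31.1, 31.3 and 32.7 CPM in romidepsin (log2 change 3.35 ± 0.15 SE, adjusted p = 4.43e-25 by edgeR). DNAAF3, which helps to assemble the dynein arms of the axoneme, had 1.92, 2.22 and 1.58 CPM in DMSO and 20.4, 17.1 and 20.8 CPM in romidepsin (log2 change 3.36 ± 0.18 SE, adjusted p = 4.87e-22 by edgeR). The groups lay far apart for both. The axonemal dynein genes DNAH7 and DNAI1 had no count in any DMSO library and stood at 2.32, 0.802 and 1.47 and at 1.03, 1.49 and 0.897 CPM in the romidepsin libraries. BBS9, a BBSome subunit, rose from 3.49 ± 0.135 to 14.9 ± 1.41 CPM, and 6 of the 8 tested BBS genes (picked) were higher. The small GTPase ARL6, which recruits the BBSome to membranes, rose from 11.9, 11.5 and 11.04 to 38.9, 50.6 and 40.3 CPM, and ARL3, which acts in ciliary cargo release, from 11.7, 9.69 and 7.62 to 19.2, 20.6 and 17.9 CPM.

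The members did not move as one. CFAP46, a protein of the central pair of microtubules, fell from 27.1, 31.8 and 37.9 to 3.35, 2.18 and 2.94 CPM (log2 change -3.48 ± 0.17 SE, adjusted p = 3.54e-23 by edgeR). BBS12, a chaperonin-like protein of the BBSome pathway, fell from 88.3 ± 3.72 to 31.5 ± 3.29 CPM, and CFAP57 fell from 12.2 ± 1.39 to 4.84 ± 0.9504 CPM. MCIDAS, a coactivator that turns on the programme of multiciliated cells, is not on the list and was named after its value was seen. It fell from 25.4, 24.2 and 27.5 to 7.73, 7.56 and 6.69 CPM (log2 change -1.82 ± 0.13 SE, adjusted p = 9.85e-17 by edgeR).

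**Figure D2:**
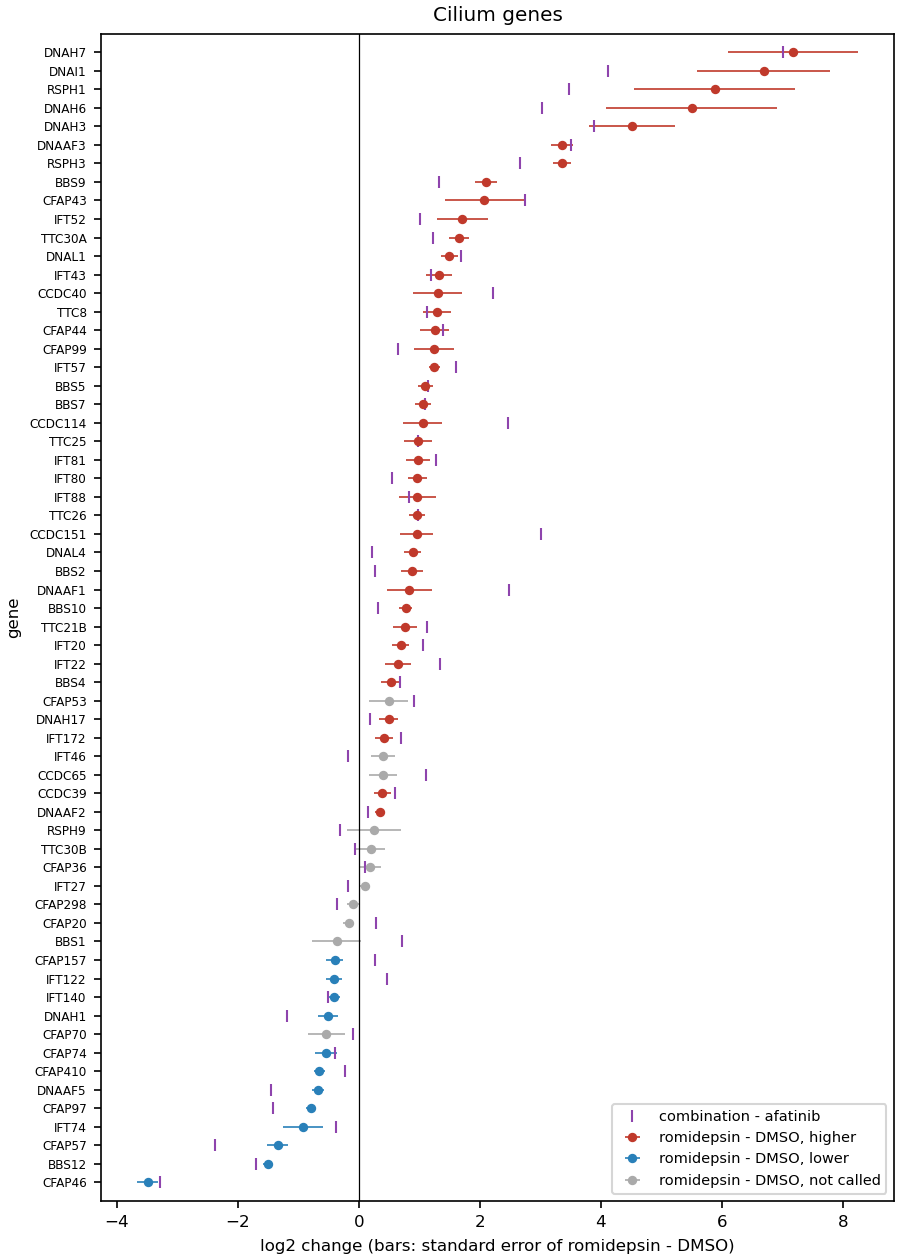
Log2 fold change of the 62 tested cilium genes for romidepsin minus DMSO (circles with standard errors, coloured by call) and for the combination minus afatinib (purple ticks). Genes at the top such as DNAH7 and DNAI1 had no count in DMSO, so their fitted change depends on the prior count and is no measure of size. 39 genes were called higher and 12 lower.

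SNARE proteins pull vesicle and target membranes together, and 25 of 38 tested members were higher and 8 lower (median log2 change 0.42). STX3, a syntaxin of the apical plasma membrane, rose from 12.7, 14.9 and 13.9 to 94.2, 104 and 99.6 CPM (log2 change 2.84 ± 0.09 SE, adjusted p = 9.54e-32 by edgeR). The endosomal syntaxin STX7 rose from 11.9, 10.6 and 9.64 to 59.8, 68.1 and 58.3 CPM, and STX1A, a syntaxin of nerve terminals, from 9.67 ± 2.11 to 34.3 ± 3.89 CPM. The Golgi SNARE gene GOSR1 fell from 139 ± 6.901 to 84.6 ± 1.86 CPM. Of the ARF and ARL GTPases, 14 of 22 were higher and 4 lower. Of the synaptotagmins (picked), which sense calcium at vesicles, 7 of 8 were higher, but only SYT11 and SYT4 reached 3 CPM on average. The other 11 members of the listed family of vesicle calcium sensors had 3 higher and 4 lower. SYT11 rose from 226 ± 15.7 to 353 ± 28.04 CPM and SYT4 from 1032 ± 68.6 to 1278 ± 121 CPM. DENN domain genes (picked), many of which encode activators of RAB GTPases, went the other way, with 9 of 11 lower, 1 higher and DENND2D falling from 61.3, 69.97 and 71.9 to 19.6, 20.1 and 18.4 CPM. The RAB GTPases themselves had 23 of 47 higher and 13 lower.

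Among chloride channels and anoctamins, 13 of 21 tested members were higher and 6 lower. CLIC4 rose from 4.34, 5.15 and 5.34 to 45.2, 51.8 and 49.9 CPM and CLIC5 from 1.58, 0.606 and 0.788 to 17.3, 15.6 and 14.3 CPM. The anoctamins ANO9 and ANO3 fell (log2 fold changes -1.58 and -1.48). Solute carriers (78 of 206 higher, 66 lower) stayed near the background. Potassium channels had 8 of 35 higher and 11 lower. Of the 21 potassium channels that reached 3 CPM on average, 4 were higher and 11 lower (median log2 change -0.69). Among all tested genes at that level, 34.4% were higher and 37.4% lower.

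**Figure D3:**
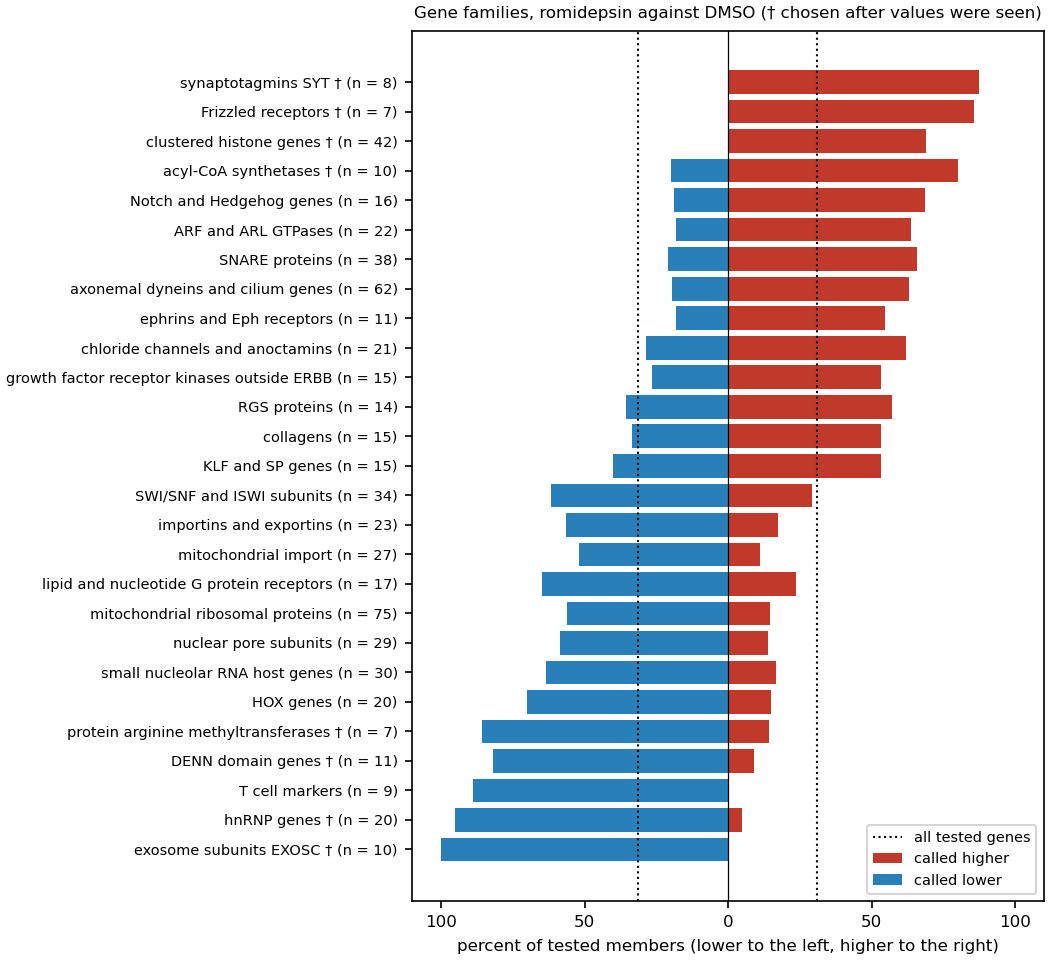
Share of the tested members of 27 gene families called higher (red, to the right) or lower (blue, to the left) with romidepsin, with all tested genes as dotted lines at 31.1% higher and 31.5% lower. The dotted lines do not take the level of the genes into account. Families with a dagger were picked after their values were seen.

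Families of developmental signalling moved in both directions. Of 16 tested Notch and Hedgehog genes, 11 were higher and 3 lower, with a median log2 change of 1.13. The Notch ligand JAG2 went from 4.002, 3.53 and 2.89 to 31.02, 26.4 and 31.6 CPM (log2 change 3.09 ± 0.14 SE, adjusted p = 1.55e-24 by edgeR). PTCH1, the Hedgehog receptor and itself a target of the pathway, went from 8.25, 7.27 and 10.2 to 40.7, 41.2 and 34.5 CPM (log2 change 2.17 ± 0.12 SE, adjusted p = 4.69e-21 by edgeR), and GLI1, the transcription factor of the pathway, from 2.59 ± 0.851 to 7.43 ± 0.777 CPM. HES7, a transcriptional repressor downstream of Notch, went from 7.25, 8.58 and 9.29 to 29.9, 26.4 and 29.9 CPM, but HES1 fell from 2.35 ± 0.777 to 0.898 ± 0.191 CPM. The receptor NOTCH2 rose from 144 ± 1.68 to 266 ± 11.6 CPM, while NOTCH1 fell slightly, from 164, 182 and 172 to 164, 145 and 141 CPM (log2 fold change -0.20, edgeR adjusted p = 0.00512). The groups met for NOTCH1, and its call was lost in some of the alternatives. In the combination against afatinib it had a log2 change of 0.34 and was called higher.

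Of the Frizzled receptors (picked), the receptors for WNT ligands, 6 of 7 were higher and none lower. The listed family that holds them also has WNT ligands and the coreceptors LRP5, LRP6, ROR1, ROR2 and RYK, and of these other members 0 of 7 tested were higher and 3 lower. The calls of FZD3 and FZD9 were lost with DESeq2 and when single libraries were left out. FZD7 rose from 9.84, 11.9 and 10.2 to 26.9, 23.6 and 21.6 CPM and FZD2 from 12.4, 14.1 and 13.8 to 27.3, 24.4 and 27.5 CPM. Ephrins and their receptors had 6 of 11 higher and 2 lower. EFNB2, a membrane-bound ligand of Eph receptors, rose from 1.42, 1.51 and 1.84 to 15.98, 19.4 and 19.01 CPM (log2 change 3.497 ± 0.20 SE, adjusted p = 2.52e-20 by edgeR). Ligands of the FGF, PDGF, VEGF and IGF families had 2 of 12 higher and 5 lower (median log2 change -0.29). Of 15 receptor tyrosine kinases outside the ERBB family, 8 were higher and 4 lower. FGFR4 rose from 6.42, 8.68 and 7.796 to 47.3, 39.6 and 42.7 CPM and CSF1R, the receptor for colony-stimulating factor 1, from 7.25, 6.46 and 7.18 to 33.2, 28.5 and 35.97 CPM. The myeloid marker list, which includes CSF1R, summed to 30.7 to 37.1 CPM in DMSO and 37.8 to 43.99 CPM in romidepsin, with S100A8, MARCO, CD163 and LYZ at 0 in the 6 libraries. Of its 3 tested members, 1 was higher and 1 lower, each at least 2-fold, so the sum joins opposite changes. The part of other cells in the CSF1R result was not tested.

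Of the receptors for lipids and nucleotides, 11 of 17 tested members were lower and 4 higher (median log2 change -0.95). The median was -0.63 without DMSO replicate 2, -0.57 without both DMSO libraries with keratin counts, and -0.02 with DESeq2 or with no filter beyond 1 count. The sphingosine-1-phosphate receptors belong to this family, and S1PR1 directs the exit of lymphocytes from tissue. S1PR1 fell from 189, 184 and 173 to 55.2, 55.8 and 55.3 CPM (log2 change -1.71 ± 0.06 SE, adjusted p = 5.51e-28 by edgeR), S1PR4 from 247, 265 and 229 to 68.6, 62.8 and 64.5 CPM and S1PR3 from 12.6, 14.03 and 12.9 to 1.37, 1.03 and 1.79 CPM. The groups did not overlap in any of the 3 genes. The prostacyclin receptor PTGIR fell from 52.2 ± 3.31 to 15.5 ± 2.53 CPM. The receptors for prostaglandin E2 rose instead, PTGER3 from 154, 153 and 163 to 309.9, 345 and 316 CPM and PTGER4 from 346, 338 and 333 to 585, 600.0 and 563 CPM. RGS proteins, which shorten signalling by G proteins, split into 8 higher and 5 lower of 14. RGS1 rose from 94.97 ± 3.805 to 303 ± 13.3 CPM and RGS2 from 20.4 ± 2.93 to 72.4 ± 2.88 CPM, whereas RGS19 fell from 64.6 ± 5.29 to 27.2 ± 2.72 CPM.

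HOX genes encode the homeodomain factors that mark position along the body axis, and adult cells keep a pattern of them. Of 39 names in the list, 20 passed the filter, with 14 lower and 3 higher and a median log2 change of -0.88. The median was -1.58 in the combination against afatinib, where 14 of the 20 had the same call. HOXC9 (chromosome 12, 53994895 to 54003337) fell from 75.7, 74.8 and 63.2 to 11.1, 11.9 and 13.8 CPM (log2 change -2.53 ± 0.11 SE, adjusted p = 5.42e-26 by edgeR). HOXB9 (chromosome 17, 48621156 to 48626358) fell from 92.5, 92.99 and 93.03 to 23.03, 18.2 and 21.3 CPM (log2 change -2.14 ± 0.08 SE, adjusted p = 4.89e-28 by edgeR). All 5 tested HOXB genes other than HOXB13 were lower, as were 4 of the 5 tested HOXC genes, HOXC10 being the exception.

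The HOXA cluster held changes in both directions. HOXA13 (chromosome 7, 27193503 to 27200091), at the end of the cluster that is read in the most posterior tissues, rose from 3.502, 3.13 and 2.89 to 12.8, 18.2 and 19.1 CPM (log2 change 2.39 ± 0.19 SE, adjusted p = 1.50e-15 by edgeR). HOXA10 fell from 41.3, 39.8 and 39.9 to 18.7, 19.9 and 16.6 CPM, HOXA11 fell from 25.1 ± 3.83 to 10.3 ± 1.33 CPM, and HOXA5, HOXA6 and HOXA9 were lower too. HOXA3 missed the threshold (log2 fold change -0.82, edgeR adjusted p = 0.117). HOXD8, the only tested HOXD gene, was higher (log2 fold change 1.16), and it did not pass the test in the combination against afatinib (log2 change 0.23).

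**Figure D4:**
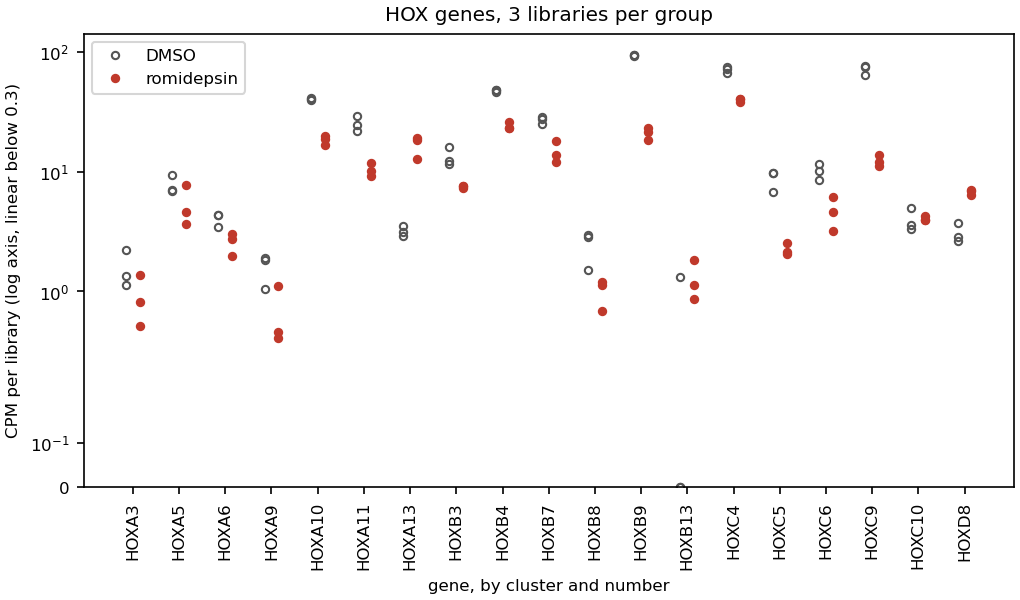
Level in CPM (log axis, linear below 0.3) of 19 of the 20 tested HOX genes in the 3 DMSO libraries (open circles) and the 3 romidepsin libraries (filled circles), in the order of the clusters. The remaining tested HOX gene is not drawn. HOXA13 lies higher with romidepsin, and HOXB9 and HOXC9 lie well below their DMSO values.

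Other transcription factor families were mixed. SOX2, known from stem and neural cells, rose from 17.6, 16.96 and 14.7 to 51.98, 57.5 and 60.2 CPM (log2 change 1.78 ± 0.11 SE, adjusted p = 3.36e-19 by edgeR), while SOX15 fell from 16.8, 17.1 and 15.9 to 3.78, 4.93 and 3.92 CPM. KLF and SP genes had 8 of 15 higher and 6 lower, with KLF5 rising from 16.5 ± 1.298 to 48.3 ± 2.08 CPM and KLF11 falling from 44.4 ± 4.97 to 21.7 ± 1.73 CPM. Of 267 tested zinc finger genes with ZNF names, 76 were higher and 100 lower, and of 31 nuclear receptors 11 and 11. Genes of cancer-testis antigens, which are silent in most adult tissues, mostly stayed under the filter: 9 of 139 names were tested, with 2 higher and 1 lower. MAGEB2 was one of the raised genes and went from 8.22 ± 1.76 to 29.3 ± 4.14 CPM.

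In the extracellular matrix the members split. Of 15 tested collagens, 8 were higher and 5 lower (median log2 change 0.92), and of the 8 that reached 3 CPM on average 3 and 4 (median -0.54). COL1A1, a chain of type I collagen, fell from 109, 113 and 136 to 16.8, 11.6 and 15.7 CPM (log2 change -2.998 ± 0.10 SE, adjusted p = 3.25e-30 by edgeR) and COL3A1 from 64.1, 61.99 and 63.2 to 14.004, 13.4 and 13.1 CPM, whereas COL6A1 rose from 1.86 ± 1.07 to 5.71 ± 0.692 CPM. The fibroblast marker list, which includes COL1A1 and COL3A1, summed to 230.0 to 263.7 CPM in DMSO and 66.3 to 73.2 CPM in romidepsin, and its members LUM and DCN had no count in any of the 6 libraries. The heparan sulfate proteoglycans of the basement membrane moved in opposite directions. Agrin (AGRN) rose from 49.6, 54.6 and 50.2 to 428, 374 and 401 CPM (log2 change 2.96 ± 0.07 SE, adjusted p = 1.78e-36 by edgeR) and perlecan (HSPG2) fell from 203, 218 and 219 to 60.8, 47.5 and 51.3 CPM (log2 change -2.00 ± 0.07 SE, adjusted p = 2.90e-29 by edgeR). SERPINH1, the collagen chaperone, fell from 60.8 ± 4.66 to 16.4 ± 2.699 CPM. In the serpin family, 4 of 7 tested members were higher and 2 lower (median log2 change 0.50).

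The nuclear lamina showed a similar split. LMNA, which encodes the A-type lamins, rose from 496, 587 and 502 to 1349, 1284 and 1265 CPM (log2 change 1.30 ± 0.06 SE, adjusted p = 4.35e-25 by edgeR). Both B-type lamins fell, LMNB1 from 372, 374 and 334 to 129, 132 and 128 CPM and LMNB2 from 978, 983 and 899 to 435, 419 and 412 CPM. In the combination against afatinib the log2 changes were 2.04 for LMNA, -2.13 for LMNB1 and -1.59 for LMNB2. Of 29 tested nuclear pore subunits, 17 were lower and 4 higher, and of 23 importins and exportins 13 and 4. NUP62, a subunit of the central channel, fell from 651 ± 25.2 to 254 ± 4.58 CPM. The import receptor KPNB1 fell from 481 ± 14.8 to 216 ± 5.41 CPM and the export receptor XPO1 from 485 ± 23.9 to 239 ± 8.57 CPM.

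The hnRNP proteins bind new transcripts, and 19 of 20 tested members (picked) were lower, 1 higher. HNRNPA2B1 fell from 1920.1, 1883 and 1919 to 1359, 1384 and 1322 CPM and HNRNPU from 1415, 1454 and 1320.5 to 825, 799.7 and 798 CPM. The exception was HNRNPLL, a splicing regulator of lymphocytes, which rose from 30.8, 32.7 and 29.5 to 83.1, 91.2 and 85.6 CPM (log2 change 1.48 ± 0.09 SE, adjusted p = 8.66e-18 by edgeR). All 10 tested EXOSC genes (picked), which encode subunits of the RNA-degrading exosome, were lower, with log2 changes of -1.08 to -0.33. EXOSC2 fell from 79.3 ± 4.85 to 37.9 ± 2.17 CPM. The listed family of exosome and CCR4-NOT subunits, which holds them, had 8 of 29 higher and 14 lower, so that its other 19 members had 8 higher and 4 lower. Of 7 protein arginine methyltransferases (picked), whose substrates include RNA-binding proteins, 6 were lower and 1 higher. Host genes of small nucleolar RNAs had 19 of 30 lower and 5 higher. SNHG20 fell from 49.6 ± 5.502 to 15.2 ± 1.202 CPM, and SNHG9 rose from 5.02 ± 1.33 to 17.7 ± 4.19 CPM. Of 30 subunits of the RNA polymerases, 10 were higher and 10 lower, none by at least 2-fold.

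Mitochondrial translation and protein import, which depend on nuclear genes, were lowered in a similar share. Of 75 tested mitochondrial ribosomal proteins, 42 were lower and 11 higher (median log2 change -0.39), and of 27 import proteins 14 and 3. MRPL27 fell from 26.1 ± 3.46 to 10.5 ± 0.479 CPM and TIMM13, a chaperone of the space between the membranes, from 174 ± 9.22 to 79.99 ± 9.77 CPM. The share of counts from the mitochondrial genome itself was 12.9% ± 1.69 in DMSO and 12.8% ± 0.956 in romidepsin (SD, n = 3, exact permutation p = 0.9).

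Subunits of the SWI/SNF and ISWI remodellers, which move nucleosomes, had 21 of 34 lower and 10 higher. ARID1B fell from 131, 138 and 131 to 52.8, 50.9 and 50.7 CPM (log2 change -1.37 ± 0.07 SE, adjusted p = 2.14e-23 by edgeR) and its paralog ARID1A from 216 ± 2.98 to 111 ± 5.93 CPM. DPF3, a subunit known from heart and muscle, rose from 2.401 ± 0.836 to 12.8 ± 2.69 CPM. Alternative subunits moved apart: SMARCA4 fell from 161 ± 7.105 to 109.9 ± 9.59 CPM while SMARCA2, the alternative motor, rose from 36.9 ± 1.61 to 50.9 ± 2.96 CPM. SMARCD1 fell (log2 fold change -0.60) while SMARCD3 rose (0.83).

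Genes typical of other organs crossed the filter in small numbers. Of 42 names of liver-secreted proteins, 6 were tested and 4 of them were higher: the coagulation factor gene F5 rose from 0.601 ± 0.0154 to 5.19 ± 0.406 CPM, ITIH3 from 0.414 ± 0.101 to 3.94 ± 0.221 CPM, and ITIH4 and HPX also rose. These genes passed the filter through the groups in which they were high. Of 51 retina and inner ear names, 13 were tested, with 7 higher and 2 lower, and among the 6 that reached 3 CPM on average 3 and 2. Skeletal and heart muscle genes had 7 of 20 higher and 6 lower (median log2 change 0.08), milk, tear and mucosal secretory genes 5 of 15 and 7 (median -0.24), and globin and red cell genes 2 of 4 and 0. PCDH15, a protein of the hair cell tip link, rose from 0.383 ± 0.21004 to 2.76 ± 0.307 CPM, and OTOF, a calcium sensor of hair cell synapses, fell from 112 ± 7.42 to 61.1 ± 5.34 CPM.

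More genes became visible than disappeared. 4021 gene names had no count in the 3 DMSO libraries and at least 1 in romidepsin, 424 of them in all 3 libraries. In the other direction there were 2276 and 144. The DMSO libraries together held more counts than the romidepsin libraries. Of the 424 names, 176 were protein coding, 145 noncoding and 59 pseudogenes by GENCODE 29, and 44 were of another type or not matched. Leading examples were the long noncoding RNAs LINC02446 with 82, 54 and 74 counts and LINC02506 with 26, 28 and 41 counts in the romidepsin libraries, and MYCT1 with 29, 29 and 22. Against a floor of 3 counts over the 3 DMSO libraries, LINC02446 was at least 71.3-fold higher and MYCT1 at least 28.2-fold. The histone pseudogene HIST1H2APS3 (chromosome 6, 26233122 to 26233255), in the cluster on chromosome 6, had 37, 37 and 47 counts (at least 41.7-fold). SMIM10L2A had the most counts of this group (132, 58 and 123), but shares reads with a near-identical copy. In the other direction KRT5 and KRT14 led, with nearly all their counts in DMSO replicates 1 and 2, followed by TRBJ2-3 and LINC02118.

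Gene types differed in their calls. Of 11899 protein-coding genes, 4220 were higher and 4083 lower (35.5% and 34.3%). Processed pseudogenes had 83 higher and 177 lower of 972, and antisense transcripts 216 and 286 of 1070. In the lincRNA type, 211 of 803 genes were higher and 195 lower, but this type took 0.730% ± 0.0618 of all counts in DMSO and 1.25% ± 0.0998 in romidepsin (SD, n = 3). The libraries did not overlap, with an exact two-sided permutation p = 0.1, the smallest that 3 against 3 can give, and 0.22 after Benjamini-Hochberg adjustment over 11 shares. NEAT1 alone made up 0.429 percentage points of this difference, rising from 0.106% ± 0.0267 to 0.535% ± 0.0737 of all counts, and the type without NEAT1 went from 0.624% ± 0.0356 to 0.711% ± 0.0299. The 100 most abundant genes of each library took 28.1% ± 1.02 of the counts in DMSO and 31.5% ± 0.626 in romidepsin (exact permutation p = 0.1, adjusted 0.22).

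Calls were then counted by genomic span, from the first to the last annotated base of a gene. Protein-coding genes of 5 to 10 kb had a median log2 change of -0.17, with 361 of 1318 higher and 554 lower. Genes of 200 to 500 kb had a median of 0.35, with 339 of 683 higher and 154 lower. Above 500 kb it was 0.32 over 151 genes. Among genes that reached 3 CPM on average, the median difference between genes over 200 kb and those up to 10 kb was 0.343, 0.464 and 0.398 in the romidepsin libraries. It was 0.00712, -0.0752 and 0.0636 in the DMSO libraries, 0.177 to 0.263 with afatinib and 0.290 to 0.400 with the combination. All 9 libraries with a drug lay above the 3 DMSO libraries. In the comparison of the combination with afatinib, the genes of 200 to 500 kb had a median of 0.08 and those of 5 to 10 kb of -0.07. The difference between the 2 comparisons was not tested.

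**Figure D5:**
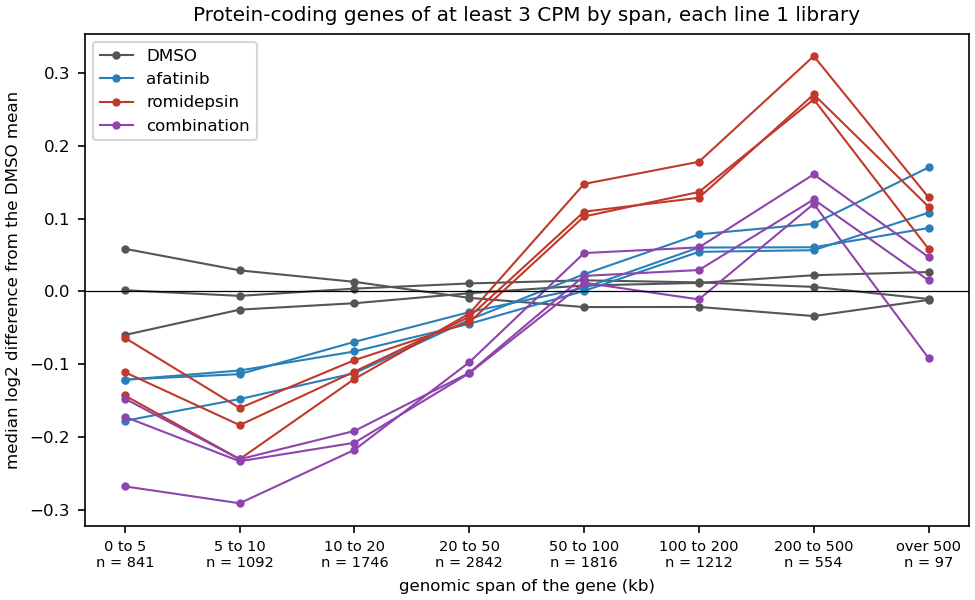
Median log2 difference from the mean of the DMSO libraries for protein-coding genes of at least 3 CPM, by genomic span in kb, with 1 line for each of the 12 libraries. The romidepsin libraries rise from below 0 in genes up to 50 kb to between 0.264 and 0.323 at 200 to 500 kb, then fall to between 0.0583 and 0.129 above 500 kb.

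Calls were also counted by level. Protein-coding genes with a mean of up to 1 CPM over the 12 libraries had a median log2 change of 0.58 (195 of 643 higher, 59 lower), and genes of 100 to 300 CPM one of -0.13 (540 of 1611 higher, 795 lower). The first group holds genes that passed the filter through the group where they were high. By chromosome, medians ran from -0.19 on chromosome 22 (101 of 449 higher, 177 lower) to 0.20 on chromosome 4 (226 of 560 higher, 138 lower).

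Genes read outwards from a shared region were compared with other neighbours. In 594 pairs of protein-coding neighbours whose starts lay head to head within 1 kb, 123 pairs were both higher, 93 both lower and 79 opposite. Given a raised gene, its partner was raised in 55.4% of cases, where 37.4% of the genes in such pairs were raised. Among all 11861 adjacent pairs the values were 40.7% and 35.5%, and in tail-to-tail pairs within 1 kb 38.4% and 31.4%. The differences between these classes were not tested. FPGT and LRRIQ3, 25 bases apart on chromosome 1, rose together, LRRIQ3 from 2.501, 1.72 and 2.19 to 6.44, 10.2 and 9.299 CPM and FPGT from 6.25, 5.76 and 5.61 to 22.5, 25.4 and 23.002 CPM. BRD9 and TRIP13, 83 bases apart on chromosome 5, fell together, with log2 fold changes of -1.04 and -1.53. Without strand in the counting, reads of genes that overlap cannot be told apart, and of 123 overlapping antisense pairs with both members called, 88 had the same direction.

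Some runs of consecutive tested protein-coding genes moved at least 2-fold in the same direction. Untested and noncoding genes between them were skipped. Of all tested protein-coding genes, 13.4% rose and 9.7% fell that far. Of the raised runs, 1 held 6 genes, 1 held 5 and 7 held 4, and among those of 4 the shortest in span are given. How many such runs these shares alone would give was not tested. A pair of raised runs lay in the histone cluster on chromosome 6. One held TRIM38, HIST1H3A, HIST1H4B, HIST1H3B and HIST1H1C, and TRIM38, a ubiquitin ligase gene that is no histone gene, rose from 44.7, 39.1 and 46.9 to 124, 137 and 129 CPM. The other held HIST1H2BG, HIST1H2AE, HIST1H3E and HIST1H1D. A run of 4 on chromosome 16 held AC004233.2, CLDN9, CLDN6 and TNFRSF12A, of which TNFRSF12A, the receptor for the cytokine TWEAK, rose from 8.54 ± 1.64 to 17.9 ± 1.38 CPM. The longest lowered runs held 4 genes each. One held 4 gamma protocadherins (PCDHGB2, PCDHGA5, PCDHGB3 and PCDHGA6), alternative first exons of 1 locus that share their later exons, so these genes are not independent. PCDHGB2 fell from 3.22 ± 0.289 to 1.06 ± 0.155 CPM. The others were ITFG2, NRIP2, TEX52 and FOXM1 on chromosome 12, CTPS1, SLFNL1, SCMH1 and EDN2 on chromosome 1, and GOLGA8K, ARHGAP11A, RYR3 and AVEN on chromosome 15. The cell death inhibitor gene AVEN fell from 10.1, 10.8 and 10.9 to 1.98, 2.29 and 2.53 CPM, and GOLGA8K belongs to a family of near-identical copies, so its value is uncertain. Several runs rest on calls that did not hold in every alternative. The call of AC004233.2 was lost in 6 alternatives, of HIST1H3B in 8, of HIST1H4B and GOLGA8K in 5 each, of TEX52 in 4, and of CLDN9 and PCDHGB3 in 1 each, which breaks the runs that hold them.

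Short motifs and CpG content were counted in the same promoter windows. Windows were matched for 9696 of the 11899 tested protein-coding genes, of which 3432 (35.4%) were higher and 3355 (34.6%) lower. Of genes with TTTGGCGC on either strand, the core of a site for E2F factors, 22 of 102 were higher and 56 lower (54.9%). These letters are in 0.659% of all windows. TTTCCCGC, counted as the other form of this site, had 77 of 252 higher and 107 lower (42.5%), in 1.66% of windows. CCGGAAG had 583 of 1880 higher and 704 lower, and GGGCGG 2487 of 6733 higher and 2292 lower. CACGTG had 305 of 979 higher and 391 lower (7.43% of windows), TGANTCA 134 of 423 higher and 166 lower (7.76%), and TATAAA 227 of 550 higher and 159 lower. By observed to expected CpG ratio, genes of up to 0.2 had 34.3% higher and 32.7% lower, those of 0.4 to 0.6 had 31.7% and 38.3%, and those of 0.8 to 1 had 36.6% and 33.97%. At least 2-fold rises made up 20.4%, 15.4% and 12.03% of these bins, and at least 2-fold falls 17.3%, 17.8% and 6.73%. In every bin the split depended on level. At ratios of up to 0.2, 33.3% were higher and 15.3% lower up to 3 CPM, and 31.6% and 52.1% from 30 CPM. At 0.8 to 1, 28.9% were higher and 12.9% lower up to 3 CPM, and 37.1% and 41.8% from 30 CPM.

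The largest falls among genes with TTTGGCGC and at least 3 CPM were those of MCIDAS (chr5:55227266-55227565, minus strand) and PDGFA (chr7:520177-520476, minus strand), and their windows are printed to show the match, in capitals.
MCIDAS: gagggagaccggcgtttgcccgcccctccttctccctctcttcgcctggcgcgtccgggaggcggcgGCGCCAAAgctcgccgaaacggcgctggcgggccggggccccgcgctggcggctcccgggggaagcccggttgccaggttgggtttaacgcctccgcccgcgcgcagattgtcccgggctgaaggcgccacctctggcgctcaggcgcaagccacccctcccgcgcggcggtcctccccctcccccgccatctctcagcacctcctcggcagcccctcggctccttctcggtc
PDGFA: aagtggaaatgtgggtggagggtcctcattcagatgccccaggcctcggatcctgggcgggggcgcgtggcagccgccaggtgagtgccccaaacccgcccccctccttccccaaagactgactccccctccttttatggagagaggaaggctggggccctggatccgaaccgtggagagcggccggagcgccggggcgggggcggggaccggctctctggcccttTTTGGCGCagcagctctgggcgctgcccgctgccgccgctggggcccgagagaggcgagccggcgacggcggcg
MCIDAS holds the match on the opposite strand of the gene and PDGFA on its own. PDGFA, which encodes a chain of platelet-derived growth factor, fell from 7.59, 6.87 and 6.57 to 2.75, 2.18 and 3.51 CPM (log2 change -1.29 ± 0.21 SE, adjusted p = 5.02e-07 by edgeR). In these windows a match is a stretch of letters and was not tested as a site.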

How the data were processed

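RNA sequencing counts of 12 libraries from MyLa cells were used. Per the file headers, the deposited counts are whole read pairs summed under 59050 gene names by featureCounts 2.0.0 with the GENCODE 31 annotation, ignoring strand and leaving out chimeric pairs and reads that map to several places. The submitters' processing notes name STAR 2.7.9a, DESeq2 1.38.1 and the build GRCh38.p12. How the RNA was selected and which kit was used is not given in the sources used here. A second deposited table was not used.

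Genes were kept by filterByExpr (16208) and scaled by TMM. edgeR 4.0.16 in R 4.3.3 fitted 4 group means over all 12 libraries (glmQLFit, robust, biological coefficient of variation 6.13%). glmQLFTest gave two-sided p-values adjusted by Benjamini-Hochberg across the tested genes. A gene was called at an adjusted p below 0.05. Totals were 8972228 to 12696653 counts per library, which limits low genes most. Floors of 3 counts cover counting error only. Per-library family and span values are medians of log2(CPM + 0.5). Shares were compared with exact permutation tests.

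The members and the 120 gene families were chosen with earlier results of these data known, and 15 more families (called picked in the text) after their values here were seen. Named genes are, per family, up to 3 per direction with the largest change, at least 3 CPM and groups that do not overlap; the 8 largest gains and losses in CPM; 6 genes without counts per direction; and members of runs. Some genes that this rule names, and 1 run, are not reported here. Genes named beyond this rule, among them histone and hnRNP genes, MCIDAS and other members of the families described, were chosen after their values were seen. Gene types come from GENCODE 29 by name, promoter windows from RefSeq. The tests were checked on simulated data. The alternatives were DESeq2 1.42.0, other scaling and filters, fewer libraries and a replicate block.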

Additional observations from a re-analysis of the deposited data

How the results depend on the processing

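The counts of genes called, called at least 2-fold, with TTTGGCGC and lower, in head-to-head pairs both raised, and of histone and cilium genes raised stayed within 1.5 times under every alternative tried. Leaving out 1 of the 12 libraries gave 4828 to 5258 genes higher and 4737 to 5162 lower, 2142 to 2324 at least 2-fold higher and 1676 to 1820 lower, 25 to 29 histone genes and 37 to 40 cilium genes higher, 49 to 55 lowered genes with TTTGGCGC and 111 to 127 head-to-head pairs. The number of families past the rule for description (26) was 22 to 28 when 1 library was left out, 17 with DESeq2 and 14 with no filter beyond 1 count, where more low genes enter the medians. With at most 2 counts in place of 0, 1088 genes absent in DMSO and 502 absent in romidepsin were seen in 3 of 3 libraries of the other group. The difference in the share of counts of the lincRNA type was 0.459 to 0.553 percentage points when 1 library was left out. Of the gene values under the alternatives, 16192 kept their side of the threshold, 174 lost the call, 14 gained it and none changed direction with a call. Medians of gene groups were less stable: of 920 values for 46 groups under the alternatives, 220 moved by more than the spread between replicates, among them 20 of 46 with DESeq2 and 34 of 46 without both DMSO libraries with keratin counts (chosen after seeing the data). Their sign changed in 7 of the 920, in SOX genes (5), SIGLEC and CEACAM receptors (1) and clustered protocadherins (1). HIST1H3B lost its call in 8 alternatives, and DLL3 in 3. Library size alone and upper quartile scaling put 50.7% and 51.2% of the calls on the higher side, against 49.7%. With the replicate number as a replicate block, 4995 genes were called higher and 5055 lower. Deviations of same-numbered libraries had correlations of -0.0192, -0.00119 and 0.0798, so no pairing by number was seen. These values cannot tell if same-numbered samples were grown or handled together. Depth limits genes near the floor of 3 counts, and the lack of strand limits overlapping genes.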
